A study of Mus musculus with 8 samples.

Results

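A set of 8 genes of the urea cycle, the pathway by which periportal hepatocytes turn ammonia into urea, was examined in liver RNA of Cpeb4 knockout (KO) and wild-type (WT) mice. The Cpeb4 protein binds cytoplasmic polyadenylation elements in mRNAs and thereby controls how long their poly(A) tails are and how well they are translated. The members were chosen by symbol: the mitochondrial enzymes Nags, Cps1 and Otc, the cytosolic enzymes Ass1, Asl and Arg1, and the mitochondrial carriers Slc25a15 and Slc25a13. All 8 were found, by their Ensembl identifiers, among the 21201 and 23634 genes of the 2 deposited tables, called the smaller and the larger table here. Each table is the authors' own comparison of genotypes and holds 1 value per gene, with no value per library. The series has 8 libraries in 4 groups of 2: purified endoplasmic reticulum (ER) of KO liver, purified ER of WT liver, whole KO liver and whole WT liver. Per the labels' protocols, the mice behind the ER preparations had been fasted overnight. The feeding state behind the whole liver RNA, the strain, the sex, the age and the construction of the KO allele were not stated there, nor was it stated whether each library was made from a different mouse. The tables do not say which of them is from ER and which from whole liver, and they are not assigned here. In the table from ER, values are of RNA in that preparation and need not follow the level in whole liver.

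In the urea cycle, N-acetylglutamate made by Nags switches on Cps1, which joins ammonia and bicarbonate to carbamoyl phosphate in the mitochondrial matrix. Otc condenses carbamoyl phosphate with ornithine to citrulline, which leaves the matrix and is joined to aspartate by Ass1. Asl splits the product into fumarate and arginine, and Arg1 releases urea from arginine and returns ornithine. Slc25a15 (ORNT1) exchanges ornithine and citrulline across the inner mitochondrial membrane, and Slc25a13 (citrin) exports aspartate in exchange for glutamate. The cycle is known to be induced in liver during fasting and protein feeding, when amino acids are broken down.

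The single-read steps in the lowest means put 4 libraries behind each table, with relative depths between 0.839 and 1.64 in the smaller table and between 0.717 and 1.26 in the larger. The 8 members took 2.03% of the summed means of all genes in the smaller table and 1.73% in the larger. Cpeb4 had the smallest p of both tables, with a log2 fold change of -1.10 ± 0.13 (SE) in the authors' deposited smaller table and -1.16 ± 0.11 in the larger. The tables do not write their direction, so a negative sign is read as lower in the KO on the strength of Cpeb4, and the value of Cpeb4 is then no independent check of the labels. All fold changes below are the authors' moderated log2 values, KO over WT, drawn towards 0 by their software, so they understate changes. A gene is called changed where the authors' Wald test gave an adjusted p under 0.05. Liver markers were abundant, as the labelled tissue calls for: albumin (Alb) averaged 555793 normalised counts in the smaller table and 1307220 in the larger, while the markers of renal tubule and gut summed to 5.81 and 7.78. Transferrin (Trf), listed as a hepatocyte marker, had a mean of 0.974 in the larger table and was not analysed in the smaller.

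Across the 8 members, 7 had positive fold changes in the smaller table and 8 in the larger, and 1 member was called. That member was the ornithine carrier Slc25a15, which rose in the smaller table. The median log2 fold change of the 8 was 0.33 in the smaller table, where the median of all 11661 tested genes was 0.00, and 0.22 in the larger, where that of 14180 tested genes was also 0.00. Called higher in the KO were 1 of 8 members in the smaller table, against 0.163% of tested genes, and 0 of 8 in the larger, against 0.0917%. In either direction, 0.266% of tested genes were called in the smaller table and 0.296% in the larger. At an adjusted p under 0.10 (Wald test), 1 of 8 was higher in the smaller table, against 0.197% of tested genes, and 2 of 8 in the larger, against 0.19%. At an unadjusted p under 0.05 (Wald test), 5 of 8 members were higher in the smaller table, against 2.14% of tested genes, and 3 of 8 in the larger, against 1.63%; no member was lower, and in either direction the shares of tested genes were 4.11% and 3.62%. Positive fold changes were held by 50.3% of tested genes in the smaller table and 49.6% in the larger. Most members are among the most abundant transcripts, and 7 of 8 have a mean of at least 10000 normalised counts. Of the 551 tested genes at that level in the smaller table, 5.81% were higher at an unadjusted p under 0.05, as were 5 of these 7 members. Of the 509 in the larger table, 8.06% were, as were 3 of the 7. Positive values were held by 48.8% of these abundant genes in the smaller table and 58.5% in the larger, and by 7 of 7 members in each. These counts describe a list chosen with earlier results of these data known, and no test of the list as a whole was made.

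**Figure D1:**
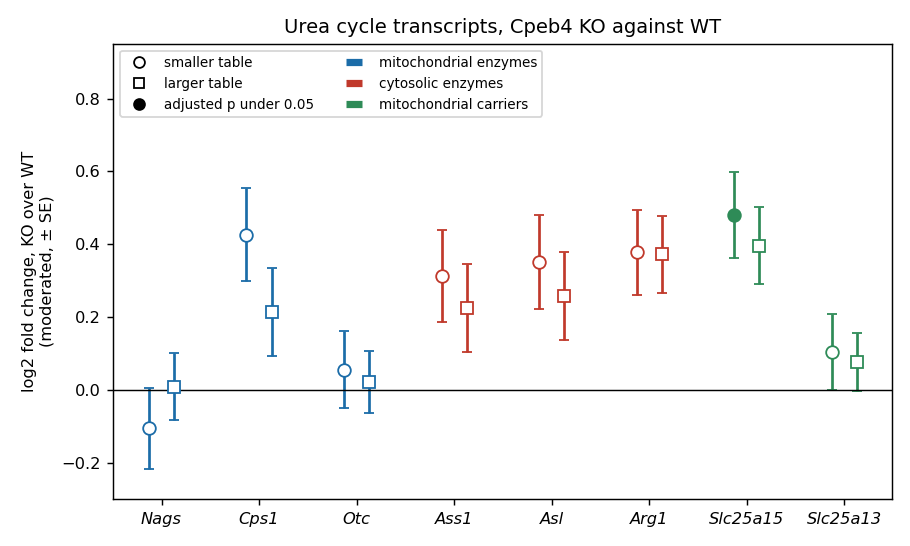
Moderated log2 fold change, KO over WT, of each urea cycle gene (y axis, bars ± SE) in the smaller table (circles) and the larger table (squares). Slc25a15 in the smaller table is the one filled point, and Cps1, Ass1, Asl, Arg1 and Slc25a15 lie between 0.21 and 0.48 while Nags, Otc and Slc25a13 lie between -0.11 and 0.10.

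Of the carriers, Slc25a15 rose in the smaller table and Slc25a13 had values near 0. Slc25a15 (ENSMUSG00000031482; GRCm38 chromosome 8, 22375551 to 22398597, minus strand) had a mean of 21327 normalised counts in the smaller table and 22789 in the larger. The authors' deposited smaller table gave it a log2 fold change of 0.48 ± 0.12 (SE), a 1.39-fold higher moderated level in the KO, with an adjusted p of 0.0238 (Wald test). In the authors' deposited larger table it was 0.40 ± 0.11, or 1.32-fold, and the adjusted p of 0.0591 missed the threshold. By p it was the 23rd of 11661 tested genes in the smaller table and the 46th of 14180 in the larger. Slc25a13 (ENSMUSG00000015112; chromosome 6, 6041218 to 6217173, minus strand) had similar means, 19098 and 18364 normalised counts. Its fold changes were 0.10 ± 0.10 and 0.08 ± 0.08 in the authors' deposited smaller and larger tables, with unadjusted p of 0.319 and 0.334 (Wald test), and it was not called. Whether the carriers differ from each other was not tested, since the tables do not allow a test between genes.

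The cytosolic enzymes had positive values throughout, and none was called. Arg1 (ENSMUSG00000019987; chromosome 10, 24915221 to 24927484, minus strand), which releases the urea, had 0.38 ± 0.12 (SE) in the authors' deposited smaller table and 0.37 ± 0.11 in the larger. Its adjusted p was 0.250 in the smaller table and 0.0975 in the larger (Wald test). Its place by p was 61st in the smaller table and 59th in the larger. Asl (ENSMUSG00000025533; chromosome 5, 130011258 to 130029247, minus strand), the lyase that yields arginine and fumarate, had 0.35 ± 0.13 and 0.26 ± 0.12 in the authors' deposited smaller and larger tables. The unadjusted p of Asl was 0.00670 and 0.0320 (Wald test), and the adjusted p was 0.547 and 1.00. Ass1 (ENSMUSG00000076441; chromosome 2, 31470207 to 31520672, plus strand), the synthetase that brings in aspartate, had 0.31 ± 0.13 and 0.22 ± 0.12 in the same deposited tables. Unadjusted p of Ass1 was 0.0137 and 0.0636, and the adjusted p was 0.743 and 1.00 (Wald test).

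Part of the sequence of Ass1 is shared with a copy, so some reads may not be told apart. The processed pseudogene Gm5424 (chromosome 10, 62071123 to 62072362, plus strand) holds 43.1% of the 31-base words of Ass1, taken over all annotated transcripts of Ass1. Of the words of Gm5424 itself, 84.7% are shared with another gene. Gm5424 was listed at a mean of 114673 normalised counts in the smaller table and 194631 in the larger, against 286010.1 and 262939.9 for Ass1. Its fold changes in the authors' deposited smaller and larger tables, 0.32 ± 0.13 and 0.22 ± 0.12, were nearly equal to those of Ass1. Of the summed mean of gene and pseudogene, Ass1 held 71.4% in the smaller table and 57.5% in the larger. The sources used here do not state how reads that match both were counted, so the level of Ass1 is uncertain. No other member shares over 25% of its words with another gene.

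Among the mitochondrial enzymes, Cps1 had a positive value while those of Nags and Otc lay near 0, and none was called. Cps1 (ENSMUSG00000025991; chromosome 1, 67123026 to 67231259, plus strand), the entry step of the cycle, had 0.43 ± 0.13 (SE) in the authors' deposited smaller table and 0.21 ± 0.12 in the larger. Its unadjusted p was 0.000805 in the smaller table and 0.0790 in the larger, and its adjusted p 0.181 and 1.00 (Wald test). Its place by p was 52nd of 11661 tested genes in the smaller table and 726th of 14180 in the larger. Otc (ENSMUSG00000031173; chromosome X, 10252305 to 10321024, plus strand) had 0.06 ± 0.10 and 0.02 ± 0.09 in the authors' deposited smaller and larger tables. Nags (ENSMUSG00000048217; chromosome 11, 102145513 to 102149477, plus strand), the source of the activator of Cps1, had -0.11 ± 0.11 and 0.01 ± 0.09 in the same deposited tables. It was the 1 member below 0 in the smaller table, and its sign in the larger changed when fold changes were centred on the most abundant genes, as given under the processing alternatives. Exons of Nags overlap the antisense gene Gm11586, which holds 14.4% of its words, and the sources used here do not state whether counts were made by strand.

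**Figure D2:**
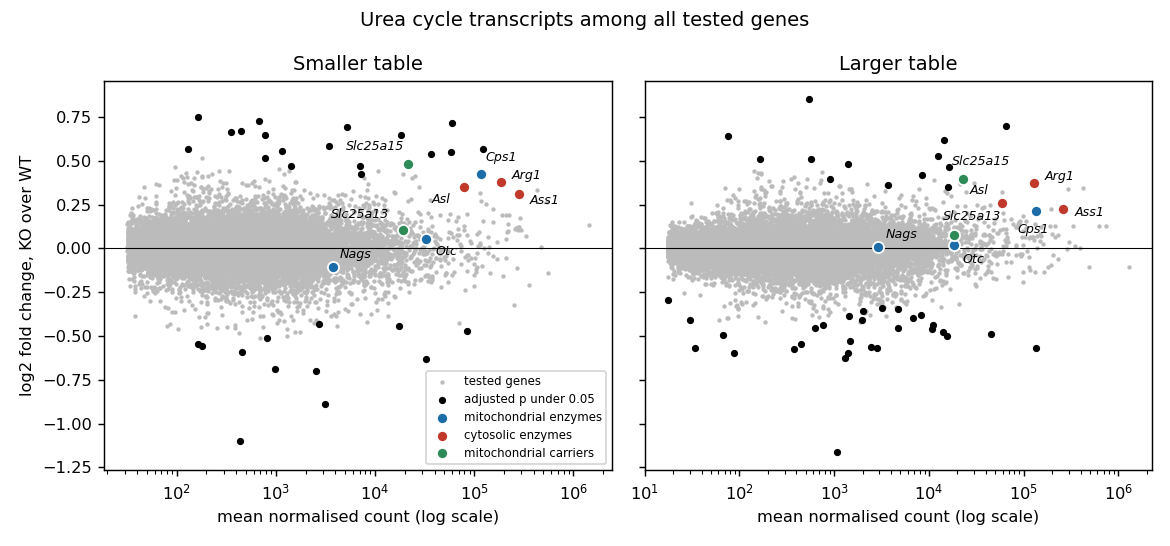
Log2 fold change, KO over WT (y axis), against the mean normalised count (x axis, log scale) for tested genes of the smaller table (left, 11661 genes) and the larger table (right, 14180 genes), with the 8 urea cycle genes coloured by role. Cps1, Ass1, Asl, Arg1 and Slc25a15 sit towards the upper edge of the abundant genes, and Nags, Otc and Slc25a13 sit within the main cloud.

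The 5 members with the larger values also had larger standard errors than most genes of their abundance. The standard error of a moderated fold change is small for the least abundant genes, largest at middle means, and smaller again at high means. Its median was 0.018 for genes with a mean under 2, 0.140 for means from 100 to under 500, and 0.111 for means of at least 10000 in the authors' deposited smaller table, and 0.015, 0.121 and 0.088 in the larger. Among the 509 genes of the larger table with a mean of at least 10000, Cps1 had the largest standard error (0.121), and Ass1 and Asl were 4th and 6th. In the smaller table, Asl was 13th, Cps1 22nd and Ass1 25th of 551. Slc25a13, in contrast, was 538th of 551 and 470th of 509, at standard errors of 0.104 and 0.080 in the authors' deposited tables. By fold change instead of p, 7 of the 551 abundant genes of the smaller table were above Cps1, 11 above Arg1 and 12 above Asl. These standard errors belong to fold changes already drawn towards 0, so they are not a direct measure of the spread between libraries. The highest standard error of any gene was 0.142 in the smaller table and 0.123 in the larger. The spread between libraries was not analysed here, since the tables hold no value per library.

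**Figure D3:**
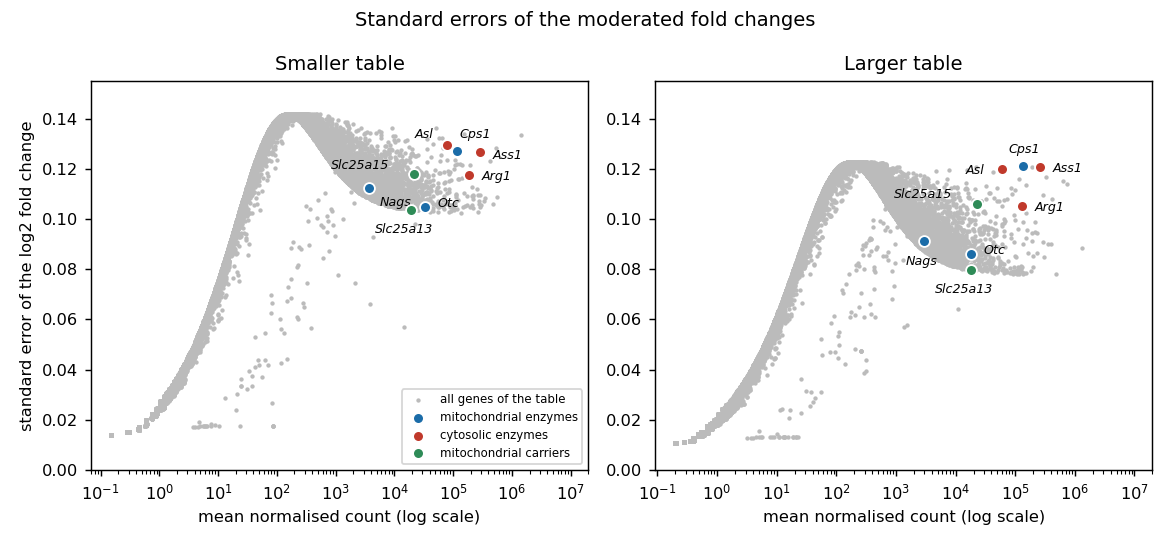
Standard error of the moderated log2 fold change (y axis) against the mean normalised count (x axis, log scale) for all genes of the smaller table (left) and the larger table (right), with the urea cycle genes coloured by role. Cps1, Ass1 and Asl lie near the top of the abundant genes at 0.127 to 0.130 on the left and 0.120 to 0.121 on the right, and Slc25a13 lies at the lower edge.

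No member was called different between the tables. Taken as smaller minus larger, the difference in log2 fold change was largest for Cps1, at 0.21 ± 0.18 (SE), and lowest for Nags, at -0.12 ± 0.14. For Slc25a15 it was 0.08 ± 0.16, and for Arg1 it was 0.01 ± 0.16. Each member had an adjusted p of 1.00 (z test, Benjamini-Hochberg over 11604 genes), and 0.0172% of those genes were called; at an unadjusted p under 0.05, 0.138% of genes and none of the members passed. So the call of Slc25a15 in the smaller table and its miss in the larger are not shown to differ. The z values of all genes had an SD of 0.535, so the test is conservative, and fold changes moderated separately in each table enter it.

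Transcript levels of the members spanned a wide range per length of exon. Within the smaller table, the mean normalised count per base of merged exon was 118 for Ass1, 84.0 for Arg1, 21.4 for Cps1, 16.4 for Asl, 7.80 for Otc, 5.03 for Slc25a13, 3.79 for Slc25a15 and 1.32 for Nags. Within the larger table, it was 109, 57.3, 24.3, 12.3, 4.30, 4.84, 4.05 and 1.03 for the same genes in that order. Ass1 and Arg1 were thus the most abundant members and Nags the least in each table, and Otc, Slc25a13 and Slc25a15 lay close together. The value of Ass1 carries the limit of its pseudogene. With the length of the longest transcript in place of merged exons, Asl stood above Cps1, at 32.9 and 21.4 counts per base in the smaller table and 24.5 and 24.3 in the larger. No spread over libraries is known for these levels, so neighbours in the order cannot be separated.

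**Figure D4:**
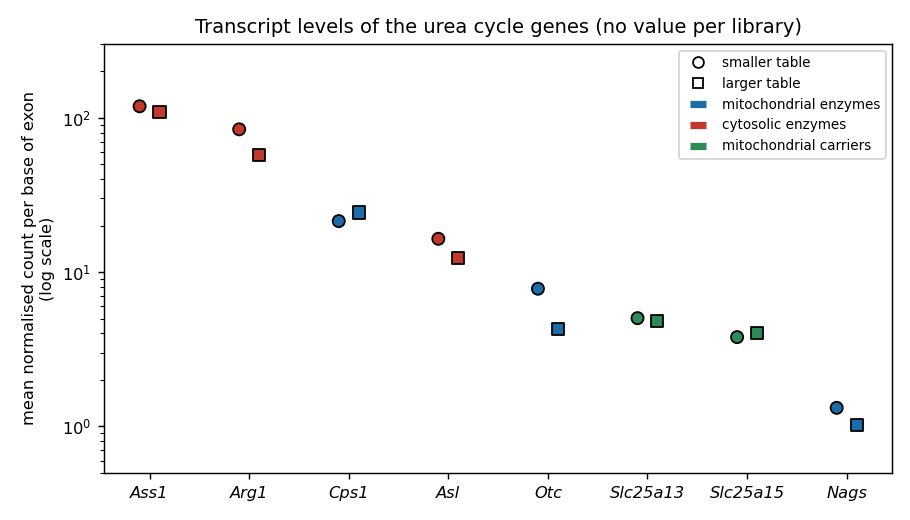
Mean normalised count per base of merged exon (y axis, log scale) of each urea cycle gene in the smaller table (circles) and the larger table (squares), in the order of the smaller table. Ass1 and Arg1 are highest, at 118 and 84.0 counts per base in the smaller table, and Nags lowest, at 1.32; no error is drawn because the tables hold no value per library.

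Enzymes and carriers that feed nitrogen into the cycle mostly had positive values, as the members did. Of the 15 genes of that list, 12 were tested. Of these, 10 were above 0 in the smaller table and 9 in the larger, with medians of 0.17 and 0.18. In the smaller table, 50.3% of tested genes were above 0, and 48.8% of those with a mean of at least 10000. In the larger table, the shares were 49.6% and 58.5%. Called higher were 2 of 12 in the smaller table, against 0.163% of tested genes, and 0 of 12 in the larger, against 0.0917%. None was called lower. Higher at an unadjusted p under 0.05 (Wald test) were 5 of 12 in the smaller table and 7 of 12 in the larger. None was lower at that p. Of the 8 members, 5 and 3 were higher at that p. Of all tested genes, 2.14% and 1.63% were. Of those with a mean of at least 10000, 5.81% and 8.06% were. Got1, the cytosolic aspartate aminotransferase, rose in the smaller table, at 0.54 ± 0.13 (SE; authors' deposited table, Wald test adjusted p = 0.0232), and had 0.25 ± 0.11 in the larger (adjusted p = 1.00). Slc7a2, a plasma membrane carrier of arginine, lysine and ornithine, rose in the smaller table at 0.47 ± 0.12 (adjusted p = 0.0440) and had 0.37 ± 0.10 in the larger (adjusted p = 0.0975, both authors' deposited tables, Wald test). Glutamate dehydrogenase (Glud1) had 0.02 ± 0.11 and -0.07 ± 0.09, and the liver glutaminase Gls2 had 0.20 ± 0.12 and 0.24 ± 0.10 in the authors' deposited smaller and larger tables; these were chosen for their role. The mitochondrial carbonic anhydrase Car5a was not analysed here.

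Genes that handle the products gave 1 call, in the larger table, where 0.296% of tested genes were called in either direction. Fh1, fumarate hydratase, which uses the fumarate that Asl releases and also serves the citric acid cycle, had 0.42 ± 0.12 (SE) in the authors' deposited smaller table (adjusted p = 0.0965, Wald test). It rose in the larger, at 0.53 ± 0.10 (adjusted p = 0.000286, authors' deposited table, Wald test). The other tested genes of the list, 9 in the smaller table with Fh1 among them and 10 in the larger, ran from -0.15 up in the smaller table and from -0.04 up in the larger and gave no other call; the list medians were 0.04 and 0.08. Ornithine aminotransferase (Oat) was not analysed here. Among 15 regulators, the coactivator Ppargc1a rose in both tables, by 0.67 ± 0.13 in the smaller and 0.51 ± 0.12 in the larger (authors' deposited tables, Wald test adjusted p = 0.000667 and 0.00648). The other 14 were not called, among them the factors Cebpa (-0.18 and -0.14) and Hnf4a (0.03 and 0.03) and the glucagon receptor Gcgr (-0.06 and -0.02) in the authors' deposited smaller and larger tables, chosen for their role. Paralogs of the members had lower mean counts and were not called: Arg2 had a mean of 15.3 and 15.0 normalised counts and was under the filter of the test, and Slc25a12 had 1058 and 1065 normalised counts and fold changes of 0.10 in each deposited table. The pyrimidine synthesis enzyme Cad, which makes carbamoyl phosphate in the cytosol, had -0.11 ± 0.14 and -0.01 ± 0.12 in the authors' deposited smaller and larger tables.

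**Figure D5:**
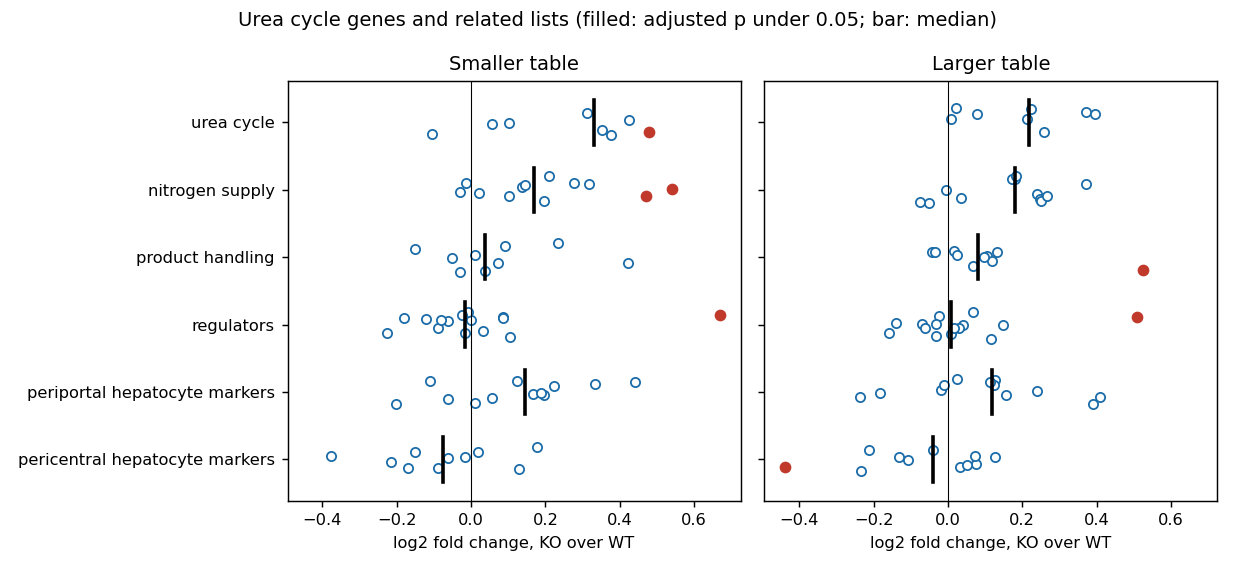
Log2 fold change, KO over WT (x axis), of every tested gene of the urea cycle and of 5 related lists (rows) in the smaller table (left) and the larger table (right); filled points passed an adjusted p of 0.05 and bars mark list medians. The urea cycle has medians of 0.33 and 0.22, above those of the other lists drawn, and regulators lie around 0 apart from Ppargc1a.

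Other markers of periportal hepatocytes, where the cycle is most active, had values of both signs. Of 12, 9 were above 0 in the smaller table and 8 in the larger, with medians of 0.15 and 0.12 and none called. Gldc, which splits glycine and releases ammonia, had 0.44 ± 0.12 (SE) and 0.39 ± 0.11, and Cdh1 had 0.33 ± 0.14 and 0.41 ± 0.12 in the authors' deposited smaller and larger tables (Gldc adjusted p = 0.0965 and 0.0839, Cdh1 0.794 and 0.158, Wald test). At the low end, Cyp2f2 had -0.20 ± 0.11 and -0.18 ± 0.09, and Ctsc had -0.11 ± 0.13 and -0.24 ± 0.10 in the authors' deposited smaller and larger tables. Higher at an unadjusted p under 0.05 (Wald test) were 2 of 12 in the smaller table and 3 of 12 in the larger. Lower were 0 of 12 and 2 of 12. Over all tested genes, 2.14% and 1.63% were higher at that p, and 4.11% and 3.62% passed in either direction. Gls2 is counted in this list and among the genes that feed nitrogen into the cycle. Of pericentral markers, 3 of 10 tested genes were above 0 in the smaller table and 5 of 11 in the larger, with medians of -0.08 and -0.04. At an unadjusted p under 0.05 (Wald test), 1 of 10 and 3 of 11 were lower, and none was higher. Cyp2c29 had -0.38 ± 0.12 in the authors' deposited smaller table (adjusted p = 0.253, Wald test) and fell in the larger, at -0.44 ± 0.11 (adjusted p = 0.0248). The other hepatocyte markers showed no common shift, with 4 of 9 tested genes above 0 in each table and medians of -0.01 and 0.00; Tat, tyrosine aminotransferase, was the called one, at 0.72 ± 0.12 and 0.70 ± 0.11 in the authors' deposited tables (Wald test adjusted p = 5.31e-06 and 4.71e-07). In bulk RNA, fewer cells of a type and less RNA per cell cannot be told apart.

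No marker of another cell type was called. Kupffer cell markers were below 0 in 9 of 9 tested genes of the smaller table and 8 of 9 of the larger, with medians of -0.10 and -0.10 and no call. The 4 tested erythroid markers were globins, and none was called. All were below 0, from -0.42 to -0.36 in the smaller table and from -0.30 to -0.29 in the larger. At an unadjusted p under 0.05 (Wald test), 4 of 4 passed in each table, against 4.11% and 3.62% of tested genes in either direction. Stellate cell markers were above 0 in 1 of 5 and 1 of 6 tested genes, with medians of -0.08 and -0.07, endothelial markers in 4 of 7 and 3 of 7, cholangiocyte markers in 1 of 3 and 1 of 3, and lymphocyte markers in 0 of 2 and 2 of 3, in the smaller and larger table in turn, with no call. Summed means were 4221 and 6273 normalised counts for the Kupffer cell markers and 14127 and 11731 for the erythroid markers. Those of the 8 members were 748556 and 647292. Sums over a few marker genes do not measure how much RNA a cell type gave. The part of these cells in the members' values was not tested.

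Sequence near the ends of the transcripts was read because Cpeb4 binds cytoplasmic polyadenylation elements (CPEs) in 3′ untranslated regions. In GENCODE M21, the elements searched, TTTTAT and TTTTAAT on the transcript strand, occurred in the 3′ untranslated region of 4 of 8 members (Cps1, Otc, Slc25a13 and Slc25a15). Of 10378 tested protein-coding genes of the smaller table, 59.9% hold one, and of 11717 of the larger table, 60.3%. The share depends on length, at 32.3% for regions of 200 to under 500 bases and 86.2% for regions of 1500 to under 3500 bases in the smaller table. Members without a match have short regions, of 255 bases in Ass1, 298 in Asl, 389 in Arg1 and 406 in Nags, and those with one have 913 in Cps1, 928 in Slc25a13, 1122 in Otc and 2306 in Slc25a15. Within the last 100 bases, 0 of 8 members and 18.7% of tested protein-coding genes of each table hold an element. The polyadenylation hexamer AATAAA lies in the last 40 bases in 4 of 8 members, against 62.7% and 62.5% of tested protein-coding genes. The matches are shown with 11 bases on either side, the element in capitals, because their place in the transcript is what the comparison rests on.
Cps1: ttcatgttggaTTTTAATataagtcaagt
Otc: agtgcctggcaTTTTATtatcctgcttg
Otc: aaaataacacaTTTTATctggaccaaat
Slc25a13: tattatgaaggTTTTATgtgaaacatgt
Slc25a13: gctttgggccgTTTTATtatagagacag
Slc25a15: aataaaggtatTTTTATtaaattagggt

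The element of Slc25a15 ends 1146 bases before the annotated end of the transcript, that of Cps1 269 bases, those of Otc 903 and 136 bases, and those of Slc25a13 424 and 301 bases. The stretch printed before the element of Slc25a15 starts with the hexamer AATAAA, and whether that hexamer is used was not tested. A match is a description of the sequence and not a binding site.

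Promoters of 5 members (Nags, Otc, Ass1, Slc25a15 and Slc25a13) were matched in RefSeq (GRCm38.p6), each with 250 bases before and 50 after the start. Searched on both strands were TGACG, the core of the cAMP response element, TTGCNNAA, a C/EBP motif, and TGTTCT, part of the glucocorticoid receptor's element. TGACG was found in 2 of 5, Nags and Slc25a13, against 20.8% of 32851 promoters of the same length. TTGCNNAA was in 0 of 5 (10.8% of all promoters) and TGTTCT in 0 of 5 (19.0%). The promoters of the carriers are printed in lower case with any match in capitals, because one carrier was called and the other was not.
Slc25a15 (chr8:22398572-22398871, minus strand): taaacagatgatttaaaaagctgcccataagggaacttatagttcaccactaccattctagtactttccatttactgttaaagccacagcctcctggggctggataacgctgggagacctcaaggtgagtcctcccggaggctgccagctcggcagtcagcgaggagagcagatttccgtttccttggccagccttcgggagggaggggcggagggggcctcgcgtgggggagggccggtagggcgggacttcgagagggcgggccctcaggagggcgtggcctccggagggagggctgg
Slc25a13 (chr6:6217124-6217423, minus strand): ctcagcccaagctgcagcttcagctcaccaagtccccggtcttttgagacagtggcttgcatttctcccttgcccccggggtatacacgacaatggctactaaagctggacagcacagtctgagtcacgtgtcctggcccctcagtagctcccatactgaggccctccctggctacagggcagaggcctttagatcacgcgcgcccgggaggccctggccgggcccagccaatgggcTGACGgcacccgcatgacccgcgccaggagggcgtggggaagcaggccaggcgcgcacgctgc

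The capitals in Slc25a13 lie 13 bases before its RefSeq start, and Slc25a15 has no match in this window. Slc25a15 has 2 entries in the RefSeq table, of which the one whose start lies 24 bases from that of its GENCODE principal transcript is shown. No match says only that these letters are not in the window.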

How the data were processed

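RNA of whole liver and of purified ER was sequenced from Cpeb4 KO and wild-type mice. Per the submitters' processing notes, STAR 2.3.0e, DESeq2 1.6.3 and mm10 are named, in roles those notes do not state. How reads were counted, and against which annotation, is not stated in the sources used here. The authors deposited 2 tables with no values per library: the mean signal of each gene over libraries (normalised counts), a moderated log2 fold change, its standard error, a Wald score and p-values with and without adjustment, by the names in the file headers. An adjusted p-value is given in the deposited tables for genes with a mean of at least 31.9 (smaller) and 17.4 (larger); genes with lower means have an unadjusted p-value there and are not counted as tested here. The deposited adjusted p-values equal a Benjamini-Hochberg adjustment over these genes.

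The members and lists were chosen with earlier results of these data known. The planned quasi-likelihood test of counts needs values per library, so the authors' Wald test stands in its place. Its p-values rest on the spread between libraries as modelled by the authors' software, and that spread may be technical. Relative depth was read from single-read steps in means under 2, all of which were whole combinations of 4 steps within 1e-06; total reads per library and intervals of counting error cannot be had. Identifiers were matched to GENCODE M21 (GRCm38, the assembly of mm10; 21080 of 21201 and 23484 of 23634). Principal transcripts are by APPRIS tag, then coding length. The level of 10000 counts for abundant genes was set after seeing the data. Differences between tables were tested by a z test that treats them as independent, with Benjamini-Hochberg adjustment over 11604 genes. Named besides the members were the called genes of each list. Where none was called, the 2 with the largest statistic were named for paralogs and periportal markers, and no single gene for other cell types. Cyp2f2 and Ctsc were added for the low end of the periportal markers, Arg2 as a paralog, and Alb and Trf as hepatocyte markers. Genes said to be chosen for their role were named too. Python 3.11.15, pandas 2.3.3, numpy 2.4.6, scipy 1.17.1 and matplotlib 3.10.9 were used.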

Additional observations from a re-analysis of the deposited data

How the results depend on the processing

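Members were recomputed with no filter on means, with means of at least 100, with fold changes centred on all tested genes or on the genes with the top 10% of means, without genes sharing over 25% of their words (which leaves out Ass1), and at an adjusted p under 0.10. Of 94 member results under these alternatives, 91 kept their direction and their side of the threshold. All alternatives start from the authors' deposited fold changes and p-values, not from counts. Only the centring alters a fold change, so under the others its direction was fixed in advance. Slc25a15 stayed called in the smaller table, with adjusted p-values from 0.0197 to 0.0398, and ran from 0.0526 to 0.0985 in the larger (Wald test). At an adjusted p under 0.10, 2 members were called higher in the larger table, Arg1 (0.0975) and Slc25a15 (0.0591), in place of 0. Centred on that top 10%, Nags turned to a log2 fold change of -0.01 in the larger table (adjusted p = 0.99995). Member medians ran from 0.33 to 0.35 in the smaller table and from 0.20 to 0.22 in the larger; means weighted by the inverse squared standard error were 0.23 and 0.17. No member's difference between tables was called under any alternative. No paired analysis was possible because the tables hold no values per library; leaving out replicates and a second count test were not run for the same reason. The standard error had medians of 0.128 (smaller) and 0.107 (larger) over all tested genes, and 0.111 and 0.088 at means of at least 10000. Small changes may therefore not pass, and how small a change could be found was not tested.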

Other observations

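Mean counts of the members can be set side by side between the tables, although the tables were normalised separately and their preparations are not named. The mean in the smaller table over that in the larger had a median of 0.838 over 11604 genes, and its 10th and 90th percentiles were 0.421 and 1.53. Otc had the highest ratio of the 8 members, 1.81, above 95.2% of genes. Arg1 had 1.47, Asl 1.34, Nags 1.29, Ass1 1.09, Slc25a13 1.04, Slc25a15 0.936 and Cps1 0.880. The Ass1 pseudogene Gm5424 had 0.589, so that gene and copy differ in this ratio although their fold changes between genotypes are nearly equal. These ratios have no error and were not tested.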
